A study of Arabidopsis thaliana with 24 samples.

Results

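The plastid genome genes of Arabidopsis thaliana were examined in RNA sequencing libraries of whole seedlings. They were taken as all rows of the count table whose AGI code (the Arabidopsis gene identifier) starts with ATCG and whose counts sum to at least 50 over the 24 libraries. Of 33602 gene rows in the table, 133 carried such a code, and 91 of these reached the threshold. Just inside it lay ATCG00920 with a summed count of 59, and just outside it ATCG00010 with 49. Of the 42 rows under the threshold, 19 summed to 0. The 91 members held 589430 of the 589791 plastid counts.

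The seedlings were Col-0, 7 days old and grown in liquid medium with 0.25% sucrose, after 2 days of stratification, under 16 h of light and 8 h of dark. Every line expressed aequorin, a calcium-reporting photoprotein: the mutants card1-1 and card1-2, made in the aequorin line, and that line itself, called WT. For 10 min, seedlings were given the quinone DMBQ at 5 µM, or DMSO alone as its solvent, termed mock. The 6 groups were card1-1 DMBQ, card1-1 mock, card1-2 DMBQ, card1-2 mock, WT DMBQ and WT mock, with 4 libraries each. CARD1 is known as a receptor kinase needed for the response to quinones. The sources used here do not give the lesions of the card1 alleles, and no label states that the 4 libraries of a group came from separate cultures. The p-values therefore set differences against the spread of these libraries, which may be in part technical.

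The plastid genome is a circular remnant of a cyanobacterial chromosome. It encodes subunits of the photosystems, of the cytochrome b6f complex, of ATP synthase and of an NDH complex, the large subunit of Rubisco, part of the plastid ribosome and RNA polymerase, and transfer and ribosomal RNAs. Most of its genes are transcribed in clusters as long precursors that nuclear-encoded proteins cut, trim, splice and edit. Nuclear mRNAs carry stable poly(A) tails, whereas in plastids tails are short and mark RNA for decay. The library method cited in the labels enriches mRNA on oligo-dT, so plastid counts come from RNA that such a selection is not built to capture. In whole seedlings fewer cells with plastids and less plastid RNA per cell cannot be told apart.

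The count table gives codes without gene names. RefSeq's annotation of the plastid genome (assembly TAIR10.1) gives few such codes in its notes, and 3 members are placed on a gene by them here. ATCG00530 is cemA, a protein of the plastid envelope, on the plus strand at Pltd:60741-61430. ATCG00660 is rpl20, a protein of the large ribosomal subunit, on the minus strand at Pltd:68512-68865. ATCG00670 is clpP, the proteolytic subunit of the Clp protease, on the minus strand at Pltd:69910-71882 with 3 coding exons. For ATCG00430 the RefSeq note reads photosystem II reaction center protein G, but no gene symbol in the annotation matches that name. Whether the name is right was not tested, so it is not taken here as the role of ATCG00430. The remaining members are given by code. The first 60 coding bases of the 3 placed members, and of rpl2 (ATCG01310) as a gene with 2 copies, are shown 5′ to 3′ with the start codon in capitals.
cemA: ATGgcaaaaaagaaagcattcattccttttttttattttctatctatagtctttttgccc
rpl20: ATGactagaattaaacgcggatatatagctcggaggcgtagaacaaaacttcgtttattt
clpP: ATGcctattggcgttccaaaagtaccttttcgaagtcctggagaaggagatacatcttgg
rpl2: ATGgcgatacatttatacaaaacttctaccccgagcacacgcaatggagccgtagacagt

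Where in the plastid genome a read can be placed once bears on which genes can hold counts. Of the 154478 windows of 50 bases in the circular plastid genome, 64.6% occurred once in the whole assembly. Another 33.9% recurred within the plastid genome, 2.42% had a copy in a nuclear chromosome and 1.21% one in the mitochondrial genome. Of 131 entries for plastid genes in RefSeq, 77 were made only of windows that occur once, among them cemA, rpl20 and clpP. A further 34 held no such window, among them all 7 ribosomal RNA entries, 12 protein-coding entries and 15 transfer RNA entries. Copies and separate parts of a gene are entries of their own. The part of rps12 at Pltd:69611-69724 held only windows that occur once and its other part held none, so rps12 stands in both counts. The gene rpl2 lies at Pltd:84337-85843 and again at Pltd:152806-154312, and both copies are among the 34 entries. The bases shown for it are the same in both copies, and ATCG01310 summed to 6 counts over all libraries. The notes give 1 code for the 2 copies, so whether another code, or a member, also holds counts of rpl2 is not known here. Reads that align equally well at several places enter the table's line of alignments that were not unique. Plastid reads from repeated windows can therefore add to that line, so its share may depend in part on plastid RNA. How much they add was not tested. Most codes are not placed on a gene here, so members that hold counts may be among these 34 entries. The read length is not given in the sources used here, so 50 bases is a length chosen for this description.

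Plastid counts were a small share of each library, and the share was highest in libraries with many alignments that were not unique. Gene counts per library ran from 2048246 to 9000207, and alignments that were not unique made up 17.3% to 66.5% of all counted records. In card1-1 DMBQ libraries plastid genes took 1.08%, 0.636%, 0.880% and 1.55% of gene counts, where the not-unique share was 57.6%, 48.3%, 51.3% and 66.5%. In card1-1 mock libraries they took 0.405%, 1.16%, 0.856% and 0.482%, with 17.3%, 25.5%, 32.3% and 25.01% not unique. The plastid shares of these groups overlapped, while their not-unique shares did not. Over all genes 2 libraries stood apart from their replicates. The chi-square per degree of freedom between replicates was 23.6 to 27.3 in pairs with card1-1 mock library 1, against 5.45 to 8.00 among the others of that group. It was 26.5 to 29.2 in pairs with card1-2 DMBQ library 2, against 9.83 to 12.3 among the others. Both libraries were kept, and counts of calls without each are given with the results.

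In card1-2 DMBQ libraries the plastid share was 0.879%, 0.742%, 1.58% and 0.697%, where 50.9%, 31.9%, 61.1% and 47.4% of records were not unique. In card1-2 mock libraries it was 0.867%, 0.921%, 0.466% and 0.504%, with 41.2%, 38.1%, 33.6% and 36.3% not unique. The highest plastid share and the next highest, 1.58% and 1.55%, fell in the 2 libraries with over 60% of records not unique. In WT DMBQ libraries the plastid share was 0.378%, 0.597%, 0.327% and 0.792%, where the not-unique share was 31.5%, 41.8%, 29.7% and 30.6%. In WT mock libraries it was 0.323%, 0.560%, 0.449% and 0.553%, with 21.3%, 29.0%, 27.2% and 21.3% not unique. The plastid shares of DMBQ and mock libraries overlapped in card1-2 and in WT.

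The group means of the plastid share were 1.04% ± 0.387 in card1-1 DMBQ and 0.725% ± 0.350 in card1-1 mock (SD, n = 4 each). They were 0.975% ± 0.411 in card1-2 DMBQ and 0.690% ± 0.238 in card1-2 mock, and 0.523% ± 0.214 in WT DMBQ and 0.471% ± 0.111 in WT mock. The WT means were the lowest under either treatment, and the difference between DMBQ and mock was smaller than 1 SD of the DMBQ group in each genotype. Taken over all counted records instead of gene counts, the order of DMBQ and mock turned round in card1-1 and in WT. The plastid share of all records was 0.409% in card1-1 DMBQ and 0.515% in card1-1 mock, 0.454% in card1-2 DMBQ and 0.411% in card1-2 mock, and 0.334% in WT DMBQ and 0.342% in WT mock.

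**Figure D1:**
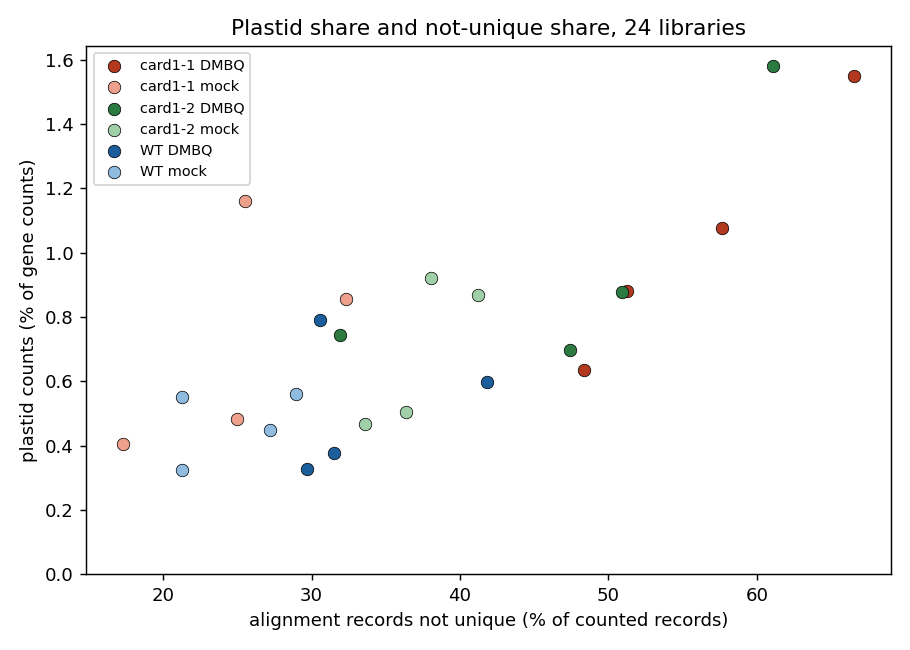
Plastid counts as a percentage of gene counts (y axis) against the percentage of counted records that were not unique (x axis), 1 point for each of the 24 libraries, coloured by group. The 2 points furthest right, card1-1 DMBQ library 4 and card1-2 DMBQ library 3, are also the highest, and card1-1 mock library 2 lies high at 25.5% not unique.

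Counts were concentrated in a few members. The sums of single members ran from 59 to 80677 with a median of 1659, and the 10 largest held 60.4% of all member counts. After scaling of library sizes with TMM (trimmed mean of M-values), ATCG00480 had the highest mean level, 915 CPM (counts scaled to a library total of 1e6) over the 24 libraries. ATCG01180 followed with 854, ATCG00020 with 522, ATCG00280 with 420 and ATCG00490 with 359. These levels are per gene and not per length, so they do not rank transcript numbers. Of the 91 members, 85 had enough counts to be tested, and the other 6 were ATCG00590, ATCG00050, ATCG00905, ATCG00920, ATCG01060 and ATCG00310. None of these 6 had more than 17 counts in a library.

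Levels of the 3 placed members were also divided by coding length. Since the oligo-dT selection is not built to capture plastid RNA, these values do not rank transcript numbers either. In card1-1 DMBQ libraries clpP averaged 378 CPM per kilobase of coding length, rpl20 averaged 62.2 and cemA averaged 28.0. In WT mock libraries the values were 388 for clpP, 23.5 for rpl20 and 5.63 for cemA. The order of the 3 genes per length was the same in all 6 groups.

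Of the 3 genotypes, card1-1 had the most members called with DMBQ, although each genotype had 4 once the not-unique share entered the fit as a covariate. Adjusted in this way, those calls differed in direction. All were lower in WT, all were higher in card1-2, and in card1-1 all but ATCG00140 were lower. Yet the unadjusted mean CPM of ATCG01210, called lower in WT and card1-1, was higher with DMBQ. It was 34.5 against 31.3 in WT and 189 against 39.9 in card1-1. Counts from the covariate fit stand here and below without the share of all genes called in it. They therefore do not show how the members compared with other genes. Without the covariate, 12 of 85 tested members rose in card1-1 and 2 fell past the threshold. The test was edgeR's quasi-likelihood test over all 17734 genes tested, two-sided, at a Benjamini-Hochberg adjusted p under 0.05. Among all genes tested, 6.7% were called in this comparison, 3.55% as higher and 3.16% as lower. The median log2 fold change of the members was 0.73, against -0.0045 over all genes tested, and 60 of 85 members lay above 0. Because the members share the same libraries and are cut from common precursors, they are not independent of each other. The DMBQ and mock libraries did not overlap in 20 members, 11 of them higher and 9 lower with DMBQ. Among all genes 10.3% did not overlap, 4.86% higher and 5.42% lower.

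ATCG00140 changed most. It had 480, 352, 415 and 468 CPM in card1-1 DMBQ libraries, against 10.5, 22.8, 61.9 and 30.0 CPM in card1-1 mock libraries. Every DMBQ library stood several times above every mock library. The log2 fold change was 3.80 with a standard error (SE) of 0.42 (edgeR, adjusted p = 4.46e-05), a 14.0-fold difference. The call held in each of 17 alternative analyses, with an adjusted p of at most 0.0165. ATCG00140 also took a larger part of the plastid counts themselves, 4.42% ± 1.11 in card1-1 DMBQ and 0.454% ± 0.278 in card1-1 mock (SD, n = 4 each).

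ATCG01180, the member with the next highest level of all, had 1947, 1587, 1525 and 1692 CPM in card1-1 DMBQ libraries, against 236, 426, 568 and 468 CPM in card1-1 mock libraries. The groups did not overlap, and the log2 fold change was 1.99 ± 0.26 (SE, edgeR, adjusted p = 0.000131). ATCG00540 had 166, 179, 124 and 134 CPM with DMBQ and 26.7, 52.0, 33.4 and 39.6 CPM in mock libraries of card1-1. Its log2 fold change was 1.99 ± 0.24 (SE, edgeR, adjusted p = 3.15e-06), and here too every DMBQ library was higher. ATCG00150 had 123, 70.9, 60.4 and 102 CPM with DMBQ and 8.37, 26.3, 26.7 and 16.5 CPM in mock libraries of card1-1, a log2 fold change of 2.21 ± 0.30 (SE, edgeR, adjusted p = 2.25e-05). ATCG00150, ATCG00540, ATCG00800 and ATCG01180 were singled out for this comparison after their values were seen.

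ATCG00210 gave the next largest rise from few counts. It had 36, 7, 19 and 31 counts in card1-1 DMBQ libraries and 0, 0, 6 and 6 counts in card1-1 mock libraries, and its fitted log2 fold change was 3.31 ± 0.87 (SE, edgeR, adjusted p = 0.0143). At these counts the size of the change depends on single reads. Without card1-1 mock library 1 its adjusted p was 0.0662, and without library 2 it was 0.0567.

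ATCG00800 and ATCG00810, next to each other in the order of codes, fell. ATCG00810 had 25.04, 9.67, 15.5 and 20.3 CPM in card1-1 DMBQ libraries, against 76.3, 238, 83.4 and 61.9 CPM in card1-1 mock libraries. The groups did not overlap, although mock library 2 stood far above the rest, and the log2 fold change was -2.70 ± 0.70 (SE, edgeR, adjusted p = 0.0256). ATCG00800 had 68.5, 29.8, 34.3 and 54.2 CPM with DMBQ and 115, 355, 168 and 105 CPM in mock libraries of card1-1, a log2 fold change of -1.99 ± 0.59 (SE, edgeR, adjusted p = 0.0483). Without card1-1 mock library 2 the log2 fold change of ATCG00810 was -2.06 (adjusted p = 0.0905) and that of ATCG00800 was -1.47 (adjusted p = 0.170). The call on ATCG00810 was also lost without card1-1 DMBQ library 2 (adjusted p = 0.0651) and without library 3 (0.0601). The call on ATCG00800 was lost in 7 of the 8 fits that each left out 1 library, the exception being that without card1-1 mock library 4.

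ATCG00480, the member of highest level, had 581, 451, 574 and 683 CPM in card1-1 DMBQ libraries and 891, 2398, 1398 and 759 CPM in card1-1 mock libraries. The groups did not overlap, yet the log2 fold change, -1.25 ± 0.49, missed the threshold (SE, edgeR, adjusted p = 0.150). As a share of plastid counts ATCG00480 took 5.84% ± 1.28 with DMBQ and 18.5% ± 2.44 in mock libraries of card1-1 (SD, n = 4 each). Of the 3 placed members none passed the test in this comparison. The largest difference among them was that of cemA, with a log2 fold change of 1.56 ± 0.53 (SE, edgeR, adjusted p = 0.0678). The value for clpP was -0.47 ± 0.27 (adjusted p = 0.351) and for rpl20 0.30 ± 0.39 (0.734), both with overlapping libraries.

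The not-unique share moved with this comparison, since the card1-1 DMBQ and mock libraries did not overlap in it, and DMBQ and that share cannot be told apart by these groups alone. With each library's not-unique share as a covariate, 4 members were called, and the median of all members was -0.87. ATCG00140 was called as higher (log2 fold change 2.26, adjusted p = 0.0165) and ATCG00280, ATCG00430 and ATCG01210 as lower. Before that adjustment the mean CPM was higher with DMBQ for ATCG00280 (633 against 400) and ATCG01210 (189 against 39.9). For ATCG00430 it was lower (24.2 against 49.5). The calls on ATCG00150, ATCG00210, ATCG00540, ATCG00800, ATCG00810 and ATCG01180 were lost in the fit with the covariate, with the same signs. The log2 fold changes there were 0.97 for ATCG00150, 0.48 for ATCG00210 and 0.74 for ATCG01180. They were 1.51 ± 0.39 for ATCG00540 (adjusted p = 0.0545), -1.70 ± 1.02 for ATCG00800 and -2.13 ± 1.23 for ATCG00810 (SE), nearer to those without the covariate but with wider errors. Without the 2 card1-1 DMBQ libraries above 55% not unique, and the 1 such library of card1-2 DMBQ, 9 members were called, 6 of them among the 14. The count ranged from 8, without card1-1 mock library 1, to 21, without card1-1 DMBQ library 2, over the fits that each left out 1 library.

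**Figure D2:**
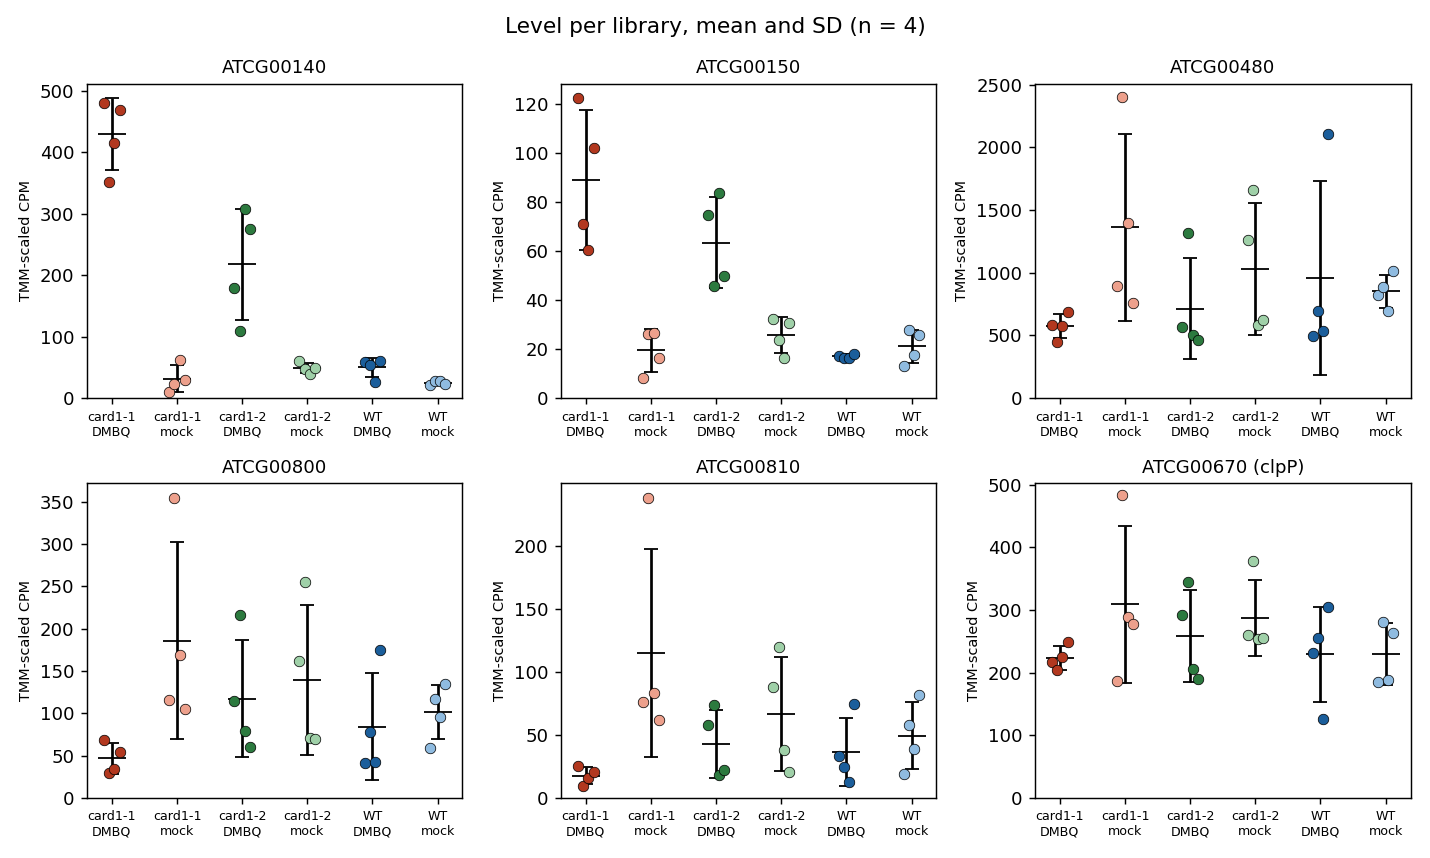
TMM-scaled CPM (y axis) of 6 members in each library of the 6 groups (x axis), with the mean as a bar and 1 SD as whiskers (n = 4). ATCG00140 and ATCG00150 are high in the DMBQ libraries of both mutants, and ATCG00800 and ATCG00810 are low in card1-1 DMBQ. For clpP the DMBQ and mock libraries overlap in each genotype.

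With DMBQ in card1-2, 8 of 85 tested members rose past the threshold and none fell. Among all genes tested, 2.2% were called, 1.07% as higher and 1.13% as lower. The median log2 fold change of the members was 0.67, against 0.025 over all genes tested, and 68 of 85 lay above 0. The libraries did not overlap in 14 members, all higher with DMBQ, where 4.07% of all genes were higher without overlap.

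ATCG00140 again changed most. It had 180, 109, 307 and 274 CPM in card1-2 DMBQ libraries, against 59.7, 46.7, 39.0 and 49.5 CPM in card1-2 mock libraries. The groups did not overlap, and the log2 fold change was 2.16 ± 0.39 (SE, edgeR, adjusted p = 0.00525). ATCG00540 had 140, 113, 121 and 79.9 CPM with DMBQ and 48.9, 65.4, 55.8 and 44.2 CPM in mock libraries of card1-2, with a log2 fold change of 1.07 ± 0.24 (SE, edgeR, adjusted p = 0.00842). ATCG00150 had 74.6, 45.7, 83.7 and 49.8 CPM with DMBQ and 32.5, 23.5, 16.5 and 30.6 CPM in mock libraries of card1-2, a log2 fold change of 1.2997 ± 0.29 (SE, edgeR, adjusted p = 0.00956). For ATCG00540 and ATCG00150 every card1-2 DMBQ library was higher than every mock library. Without card1-2 mock library 3 the log2 fold change of ATCG00150 was 1.13 and its call was lost (adjusted p = 0.0626), as it was with the not-unique share as a covariate (0.87, adjusted p = 0.0827).

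ATCG00160 rose with 1 library far above the rest. It had 33.4, 93.8, 36.5 and 21.0 CPM in card1-2 DMBQ libraries, against 10.4, 21.5, 9.45 and 10.2 CPM in card1-2 mock libraries. The groups overlapped, since DMBQ library 4 lay below mock library 2. The log2 fold change was 1.84 ± 0.44 (SE, edgeR, adjusted p = 0.0190), and without card1-2 DMBQ library 2 it was 1.21 (adjusted p = 0.133). The call was also lost without card1-2 mock library 1, 3 or 4 (adjusted p = 0.0794, 0.0856 and 0.0789).

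ATCG00810, lower in card1-1, had 57.5, 73.7, 18.0 and 22.2 CPM in card1-2 DMBQ libraries and 87.8, 120, 38.1 and 20.4 CPM in card1-2 mock libraries, and the groups overlapped. ATCG01180 had 1561, 483, 1219 and 1117 CPM with DMBQ, against 680, 803, 761 and 731 CPM in mock libraries of card1-2. Library 2, which held the lowest value, also had the lowest not-unique share of its group. With the not-unique share as a covariate 4 members were called in card1-2, all among the 8: ATCG00140 (log2 fold change 1.53), ATCG00160 (1.90), ATCG00510 (1.31) and ATCG00540 (0.91), and the median of all members was -0.0019. Leaving out DMBQ library 2, which stood apart over all genes, gave 8 calls. Leaving out card1-2 mock library 3 gave 4 calls, and leaving out card1-2 mock library 4 or DMBQ library 3 gave 5.

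The 2 mutants shared no libraries in the comparisons of DMBQ with mock. Across the 85 members, which are not independent replicates, the log2 fold changes with DMBQ had a Pearson correlation of 0.655 between card1-1 and card1-2, and 69 members had the same sign in both. The response of WT, which shares no library with either, had a correlation of 0.488 with that of card1-1 (59 of the same sign) and of 0.0589 with that of card1-2 (55 of the same sign). Of the 12 members called higher in card1-1 and the 8 in card1-2, 5 were shared, which is 41.7% of the first list and 62.5% of the second. They were ATCG00140, ATCG00150, ATCG00510, ATCG00540 and ATCG00560, the last of which lost its call in card1-2 in all but 2 of the fits that each left out 1 library. The mean not-unique share was higher with DMBQ in all 3 genotypes, at 55.9% against 25.05% in mock libraries of card1-1, 47.8% against 37.3% in those of card1-2 and 33.4% against 24.7% in those of WT. The libraries overlapped in it in card1-2 and not in card1-1 or WT.

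In WT no member was called with DMBQ by edgeR, while 1.03% of all genes tested were called. At an unadjusted p under 0.05 there were 10 members, and DESeq2 and limma voom each called 0. The median log2 fold change of the members was 0.17, against -0.0066 over all genes tested, and 58 of 85 lay above 0. The libraries did not overlap in 5 members, 4 higher and 1 lower with DMBQ. Among all genes 6.86% did not overlap, 4.22% higher and 2.63% lower.

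ATCG00140 had 59.1, 53.6, 26.3 and 60.5 CPM in WT DMBQ libraries, against 20.7, 27.6, 28.1 and 23.0 CPM in WT mock libraries. Of the DMBQ libraries 3 lay above all mock libraries and 1 among them, with a log2 fold change of 1.00 ± 0.39 (SE, edgeR, adjusted p = 0.643). ATCG01180 had 690, 880, 625 and 729 CPM with DMBQ and 384, 502, 490 and 382 CPM in mock libraries of WT. Its groups did not overlap, and the log2 fold change was 0.73 ± 0.26 (SE, edgeR, adjusted p = 0.425). ATCG00150 had 17.4, 16.3, 16.3 and 17.9 CPM with DMBQ and 13.0, 27.7, 17.6 and 25.8 CPM in mock libraries of WT, and the groups overlapped. With the not-unique share as a covariate 4 members were called lower in WT: ATCG00280, ATCG00300, ATCG00430 and ATCG01210. The median of all members in that fit was -0.20. Before that adjustment the mean CPM of ATCG01210 was 34.5 with DMBQ and 31.3 in mock libraries of WT. The means of ATCG00280, ATCG00300 and ATCG00430 were lower with DMBQ, at 221 against 286, 3.74 against 10.2 and 11.8 against 25.5.

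**Figure D3:**
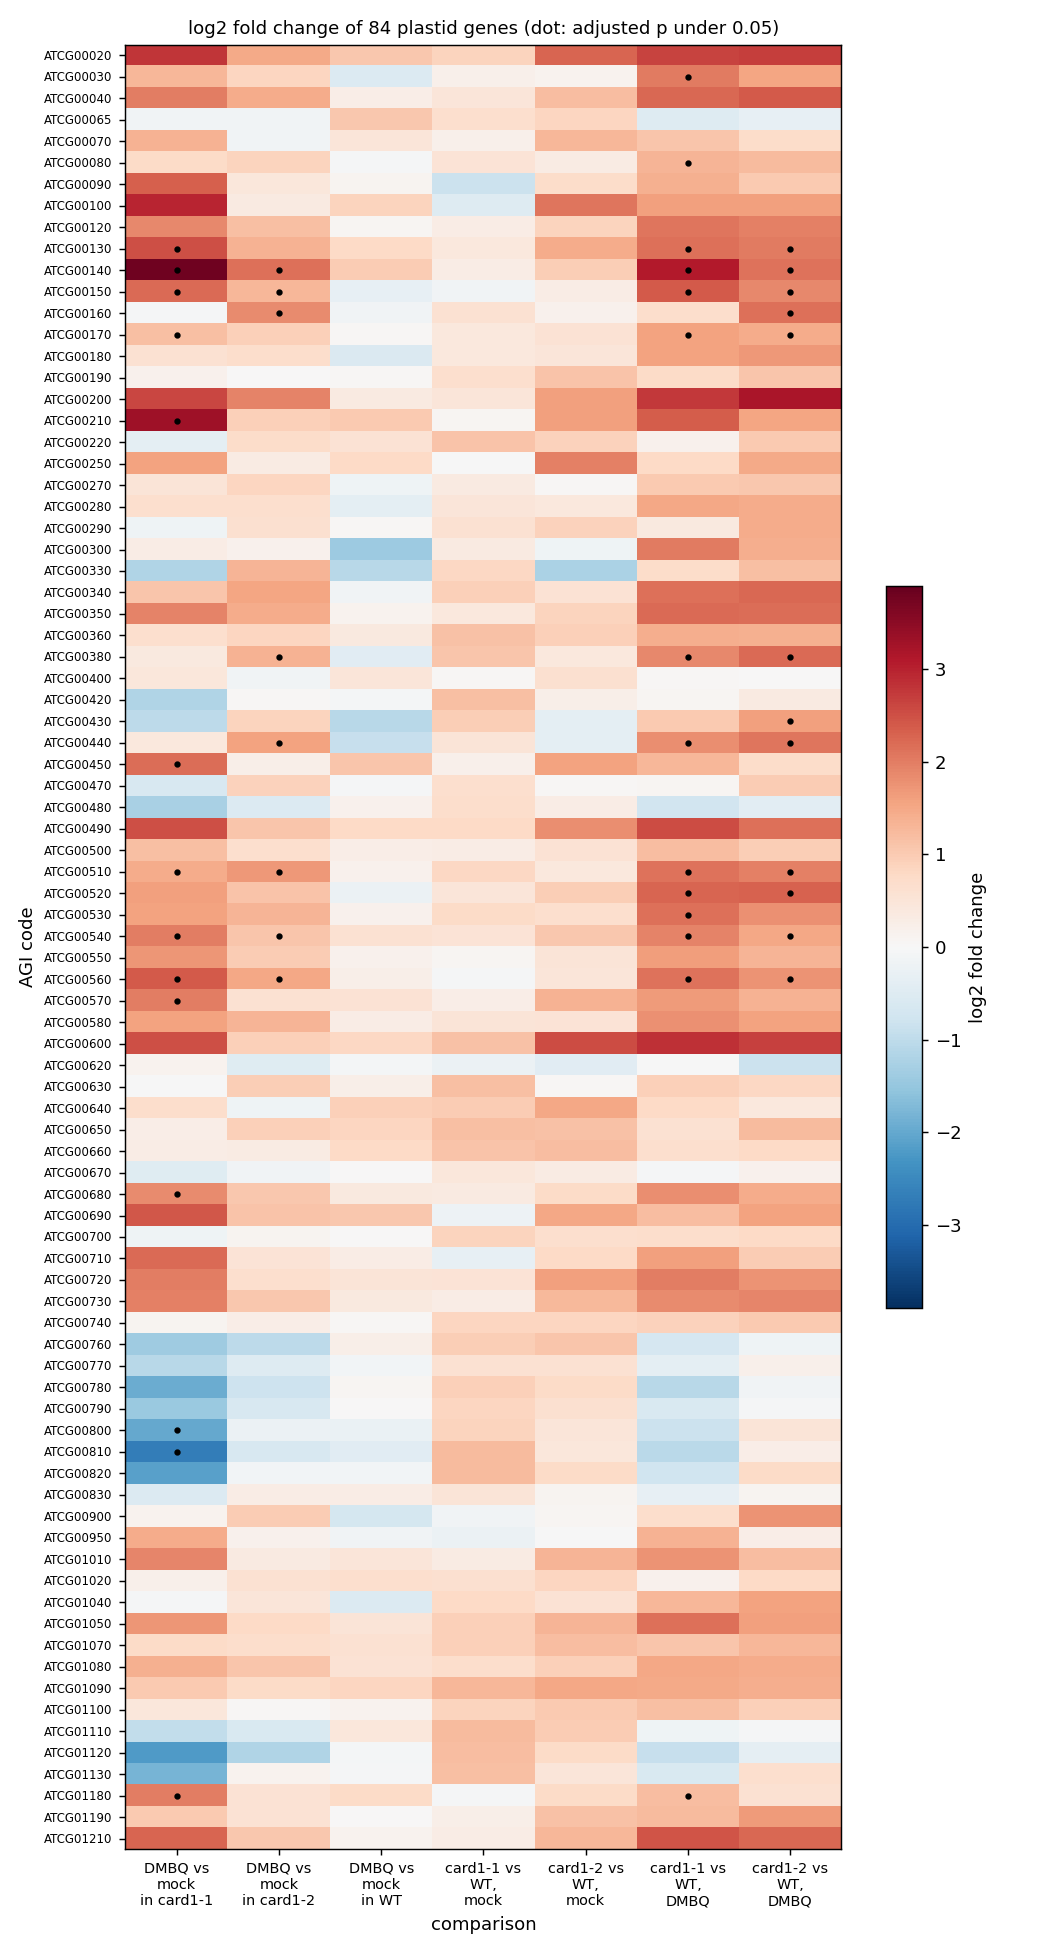
Log2 fold changes of 84 of the 85 tested members (rows, in order of AGI code) in 7 comparisons (columns), red for higher and blue for lower, with a dot where the adjusted p was under 0.05. Calls stand in the DMBQ response of both mutants and in the mutants against WT with DMBQ, none stands in the WT response or in mock libraries, and the 2 dots on blue are ATCG00800 and ATCG00810 in card1-1.

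The response to DMBQ differed between card1-1 and WT past the threshold for 1 member, ATCG00150. Its response was 2.51 ± 0.42 higher in card1-1 than in WT on the log2 scale (SE, edgeR interaction contrast, adjusted p = 0.00652), where 0.0564% of all genes tested were called, 0.00564% as higher. This member was the single gene called higher among all 17734 genes in that contrast. The call held in 24 of 25 alternatives and was lost with the not-unique share as a covariate (1.61, adjusted p = 0.162). The difference for ATCG00140 was 2.80 ± 0.56 and did not pass (adjusted p = 0.0757), nor did that for ATCG00540 (1.40 ± 0.34, adjusted p = 0.0931).

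Between card1-2 and WT no member was called for a difference of the response by edgeR, with 13 at an unadjusted p under 0.05, and 0.0282% of all genes were called. The smallest adjusted p, 0.0845, was that of ATCG00440, whose response was 2.47 ± 0.54 higher in card1-2 on the log2 scale. With the not-unique share as a covariate ATCG00440 was called (2.42, adjusted p = 0.0254). DESeq2 called 2 members in this contrast. Since the WT libraries enter both contrasts, the values of the mutants are not independent of each other.

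Without DMBQ the members lay somewhat higher in the mutants than in WT, and none was called by edgeR, DESeq2 or limma voom. In card1-1 mock against WT mock the median log2 fold change was 0.54, against 0.016 over all genes tested, and 74 of 85 members lay above 0. In card1-2 mock against WT mock it was 0.76, against 0.0051 over all genes, and 79 of 85 lay above 0. These medians were 0.52 for card1-1 and 0.24 for card1-2 with the not-unique share as a covariate. At an unadjusted p under 0.05 there were 13 members in card1-1 and 20 in card1-2. Among all genes tested, 0% were called for card1-1 and 0.0226% for card1-2. The 2 comparisons share the WT mock libraries, of which library 1 had the lowest plastid share of all 24 libraries.

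All 4 mutant libraries lay above all 4 WT libraries in 3 members for card1-1, and in 1.78% of all genes. For card1-2 they did so in 18 members, and in 2.71% of all genes. In card1-2 mock and WT mock the not-unique shares did not overlap either. The smallest p in card1-2 was that of ATCG00540, with 48.9, 65.4, 55.8 and 44.2 CPM in card1-2 mock libraries against 27.2, 28.2, 30.2 and 17.9 CPM in WT mock libraries. Its log2 fold change was 1.04 ± 0.24 (SE, edgeR, adjusted p = 0.234). When only the libraries of card1-2 mock and WT mock were fitted, 7 of 73 tested members were called, where 0.117% of all genes in that fit were.

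Against WT with DMBQ, both mutants had members called as higher. In card1-1 DMBQ against WT DMBQ 14 members were higher and none lower past the threshold, where 0.801% of all genes tested were called, 0.276% as higher. The median log2 fold change of the members was 1.29, against 0.0012 over all genes, and 69 of 85 lay above 0. In card1-2 DMBQ against WT DMBQ 12 members were higher and none lower, where 0.789% of all genes were called, 0.468% as higher, and the members' median was 1.35, against 0.0015, with 77 of 85 above 0. All 4 mutant libraries lay above all 4 WT libraries in 22 members for card1-1, and in 3.11% of all genes. For card1-2 they did so in 24 members, and in 3.32% of all genes. The 2 comparisons share the WT DMBQ libraries, so members called in both are not counted as a finding.

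For ATCG00140 the CPM values given above put every card1-1 DMBQ library at 352 or more and every WT DMBQ library at 60.5 or less. The log2 fold change was 3.09 ± 0.40 in card1-1 (SE, edgeR, adjusted p = 0.000538) and 2.11 ± 0.39 in card1-2 (adjusted p = 0.0157). For ATCG00150 it was 2.39 ± 0.30 in card1-1 (adjusted p = 1.34e-05) and 1.89 ± 0.30 in card1-2 (adjusted p = 0.000842), and for ATCG00540 1.93 ± 0.24 (adjusted p = 1.34e-05) and 1.52 ± 0.24 (adjusted p = 0.000842). The levels of ATCG00150 in WT DMBQ libraries lay between 16.3 and 17.9 CPM, below all libraries of either mutant with DMBQ. The call on ATCG00140 in card1-2 was lost without WT DMBQ library 2, 3 or 4 (adjusted p = 0.0598, 0.0683 and 0.0537).

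ATCG00380 had the smallest p of all genes in card1-2 DMBQ against WT DMBQ. It had 40.8, 25.1, 51.9 and 21.0 CPM in card1-2 DMBQ libraries, against 4.61, 9.67, 7.16 and 8.10 CPM in WT DMBQ libraries. The groups did not overlap, and the log2 fold change was 2.21 ± 0.32 (SE, edgeR, adjusted p = 0.000306). The call held in each of 17 alternatives. In card1-1 ATCG00380 was also higher than in WT with DMBQ, by 1.87 ± 0.32 on the log2 scale (adjusted p = 0.000757).

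cemA was the only placed member called in any comparison. It had 14.4, 5.24, 29.4 and 28.2 CPM in card1-1 DMBQ libraries, against 1.90, 7.19, 1.99 and 6.08 CPM in WT DMBQ libraries. The groups overlapped, since card1-1 library 2 lay below 2 WT libraries. The log2 fold change was 2.14 ± 0.55 (SE, edgeR, adjusted p = 0.0477), and the call was lost in 12 of 17 alternatives, with an adjusted p of up to 0.476. In card1-2 the log2 fold change of cemA was 1.79 ± 0.55 (adjusted p = 0.109). ATCG00520, with the largest change called in card1-2 (2.29 ± 0.54, SE, edgeR, adjusted p = 0.0470), lost its call in 13 of 17 alternatives.

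The other placed members were called in no comparison. clpP averaged 224 ± 18.9 CPM in card1-1 DMBQ and 309 ± 125 in card1-1 mock, 258 ± 73.7 in card1-2 DMBQ and 287 ± 60.9 in card1-2 mock, and 229 ± 75.5 in WT DMBQ and 229 ± 49.9 in WT mock (SD, n = 4 each). rpl20 averaged 22.0 ± 10.0 and 17.9 ± 10.1 CPM in DMBQ and mock libraries of card1-1, 24.002 ± 9.29 and 18.8 ± 7.60 in those of card1-2, and 13.9 ± 5.46 and 8.32 ± 3.35 in those of WT. For both the DMBQ and mock groups overlapped in each genotype.

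The count of members called against WT with DMBQ depended on single libraries. For card1-1 it was 7 without WT DMBQ library 1 or 4, and 8 without WT DMBQ library 2 or 3 or card1-1 DMBQ library 1 or 4, against 14 with all libraries. For card1-2 it was 4 without WT DMBQ library 3 and 7 without WT DMBQ library 1, 2 or 4, against 12, and 9 without card1-2 DMBQ library 2. With the not-unique share as a covariate 2 members were called for card1-1, ATCG00140 and ATCG00540, and 6 for card1-2. The medians over all members were -0.032 and 0.25. The counts of these alternative fits stand here without the share of all genes called in the same fit.

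Changes with DMBQ in the mutants were alike among members with neighbouring codes. For the 3 placed members the codes run in the order of their start on the genome. Over 84 pairs of neighbours among the tested members, the log2 fold changes with DMBQ had a Pearson correlation of 0.521 in card1-1, 0.431 in card1-2 and 0.214 in WT, given as a description since neighbours share libraries and often a precursor. The same correlation was 0.25 for card1-1 against WT in mock libraries and 0.0469 for card1-2 against WT in mock libraries. The 8 members from ATCG00760 to ATCG00830 all lay below 0 in card1-1, between -2.70 and -0.52, and 7 of them below 0 in card1-2, with a median of -0.56. In WT 4 of these 8 lay below 0. In card1-1 the same 8 members all lay above WT in mock libraries, with a median of 0.90, and all below WT with DMBQ, with a median of -0.72. Card1-1 mock library 2 stood far above its replicates in some of them. It had 801 CPM against 240 to 323 for ATCG00790, and 355 against 105 to 168 for ATCG00800. For ATCG00830 it was the lowest, at 2.02 CPM. The same mock libraries enter the fall with DMBQ and the difference from WT mock, so these are not separate results. The 10 members from ATCG00490 to ATCG00580 all lay above 0 in card1-1, with a median of 1.66, and all above 0 in card1-2, with a median of 1.10, and 9 of the 10 lay above 0 in WT, with a median of 0.24. In the fit on the not-unique share within groups, described below, all 10 of these members also rose with that share. Their median was 0.77 on the log2 scale per 10 percentage points. Of the 8 members from ATCG00760 to ATCG00830, 6 fell with that share and 2 rose, with a median of -0.16. Both stretches were chosen after their values were seen, so their signs are a description.

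**Figure D4:**
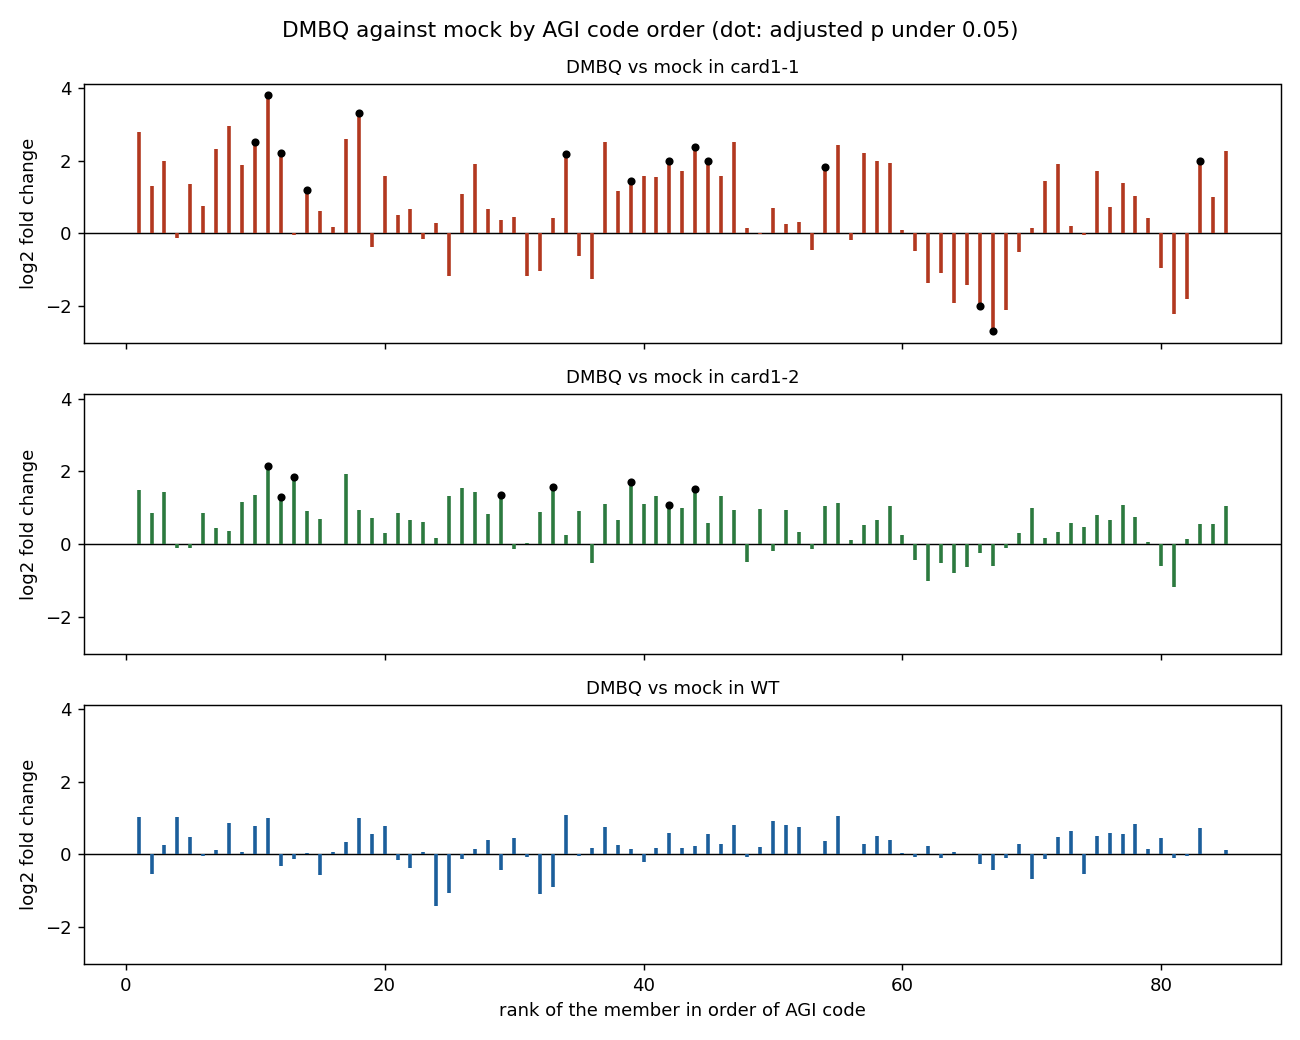
Log2 fold change with DMBQ against mock (y axis) of the 85 tested members in order of AGI code (x axis, rank), for card1-1, card1-2 and WT from top to bottom, with a dot where the adjusted p was under 0.05. Stretches of neighbours point the same way, as from ATCG00760 to ATCG00830, where all 8 bars of card1-1 point down.

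Within groups, the members also followed the not-unique share. Plastid reads can themselves enter that share, so it is not a measure independent of the members, here or as a covariate. In a fit with a term for each group, the median change of the members was 0.45 on the log2 scale for each 10 percentage points more of not-unique records, and 43 of 85 had an unadjusted p under 0.05. Past the threshold 15 members rose with that share and none fell, where 0.175% of all genes were called, 0.118% as higher. ATCG00280, one of them, changed by 1.07 ± 0.12 per 10 points (SE, edgeR, adjusted p = 0.000158), ATCG00020 by 1.57 ± 0.24 (0.00467) and ATCG00490 by 1.28 ± 0.17 (0.00122). ATCG00480 changed by -0.17 ± 0.22 (0.895), clpP by -0.0025 ± 0.13 (0.998) and ATCG00810 by -0.18 ± 0.32 (0.931). ATCG00140 changed by 0.54 ± 0.12, which did not pass (adjusted p = 0.1003), and ATCG00540 by 0.16 ± 0.10 (0.722).

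ATCG00020 shows the range within a group. It had 799, 166, 837 and 2647 CPM in card1-1 DMBQ libraries and 42.5, 68.2, 500 and 34.6 CPM in card1-1 mock libraries. It had 379, 198, 3427 and 686 CPM in card1-2 DMBQ libraries and 882, 308, 168 and 319 CPM in card1-2 mock libraries. In WT it had 80.8, 310, 153 and 176 CPM with DMBQ and 52.0, 164, 76.4 and 55.4 CPM in mock libraries. In all 6 groups its highest value fell in the library with the highest not-unique share of that group. No difference of ATCG00020 between groups passed the test.

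Genes of the mitochondrial genome, the other organelle, were measured beside them. They took 0.483% ± 0.290 of gene counts in card1-1 DMBQ and 0.0938% ± 0.0612 in card1-1 mock, 0.358% ± 0.318 in card1-2 DMBQ and 0.144% ± 0.0547 in card1-2 mock, and 0.114% ± 0.0641 in WT DMBQ and 0.0899% ± 0.0332 in WT mock (SD, n = 4 each). Of 14 tested mitochondrial genes 3 rose with DMBQ in card1-1, where 3.55% of all genes were called higher, with a median log2 fold change of 1.89. None was called in card1-2 or WT, where 2.2% and 1.03% of all genes were, and the medians were 1.44 and 0.029. All 14 lay above 0 in either mutant, and 7 of 14 in WT. Within groups 4 of the 14 rose with the not-unique share, where 0.118% of all genes did, with a median of 0.70 per 10 points.

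A few nuclear genes that act on plastid RNA were called lower with DMBQ in the mutants. A list of 26 genes for plastid transcription and RNA turnover had 4 members lower and none higher with DMBQ in card1-1, with a median log2 fold change of -0.16, where 3.16% of all genes were called lower. They were SCA3 (-0.94 ± 0.18, SE, edgeR, adjusted p = 0.000861), which encodes a phage-type plastid RNA polymerase, and PTAC12 (-0.53 ± 0.15, 0.0262), PDE312 (-0.88 ± 0.17, 0.000987) and FLN2 (-1.0004 ± 0.18, 0.000539), which encode proteins associated with the plastid-encoded polymerase. In card1-2 SCA3 (-1.22 ± 0.18, adjusted p = 8.13e-05) and FLN2 (-0.72 ± 0.18, 0.0232) fell with DMBQ, where 1.13% of all genes were called lower. In WT none of the 26 was called, with 2 at an unadjusted p under 0.05. The median of the list was -0.19 in card1-2 and -0.20 in WT. No difference of the response between a mutant and WT was called in the list by edgeR, with 2 genes at an unadjusted p under 0.05 for each mutant. With DMBQ SCA3 was also lower than in WT in card1-1 (-0.73 ± 0.18, 0.0434) and in card1-2 (-1.04 ± 0.18, 0.00236).

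A list of 25 nuclear genes for photosynthetic subunits, whose proteins join plastid-encoded ones, had 12 members higher and none lower with DMBQ in card1-1, where 3.55% of all genes were called higher. The median log2 fold change of the list was 0.45, and RBCS1A, a small subunit of Rubisco, rose by 0.71 ± 0.16 on the log2 scale (SE, edgeR, adjusted p = 0.00418). PSAO, of photosystem I, rose by 0.65 ± 0.12 (0.000742). None of the 25 was called with DMBQ in card1-2, where the median was 0.29 and 9 had an unadjusted p under 0.05, or in WT, where it was 0.090 and 1 had. The difference of the response from WT was called for none of them by edgeR, with 9 at an unadjusted p under 0.05 for card1-1 and 0 for card1-2. Shoot and root were present in all libraries: RBCS1A had at least 3481 CPM, the root gene PYK10 at least 924 CPM and the endodermal gene CASP1 at least 3.08 CPM. The transcript of CARD1 itself (AT5G49760) lay between 42.7 and 93.1 CPM in all libraries.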

How the data were processed

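Whole-seedling RNA was sequenced on an Illumina HiSeq4000 from libraries made as in Townsley and colleagues, per the labels. The submitters' processing notes list TAIR10 as the build and HTSeq 0.6.1, TopHat2 2.1.1, TopHat, bcl2fastq 2.17 and CASAVA as tools, with no role or order. The estimated count class was used for the table deposited by the authors because its columns also carry a line of fractions, but each gene value is a whole read count that was used as it stands. The sources used here give neither a strand setting nor an annotation release, so a gene and an overlapping or antisense neighbour cannot be told apart.

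No test or library size used the 9 rows that name no gene, 5 of which are HTSeq tallies. The line of alignments not unique tallies alignment records, and its share was taken over gene counts plus the HTSeq tallies. A low-count filter (filterByExpr with the 6 groups, at least 10 counts and a total of 15) kept 17734 genes, whose library sizes were scaled by TMM. The quasi-likelihood test of edgeR 4.0.16 (R 4.3.3) was fitted robustly to all 24 libraries with 1 term per group, two-sided, with Benjamini-Hochberg adjustment over all genes within a comparison and a threshold of 0.05. Every adjusted p comes from this fit unless another is named. The script was tested on simulated data. Alternatives used DESeq2 1.42.0, limma 3.58.1 voom, total counts or nuclear genes alone for scaling, no filter, the replicate number as a block, the not-unique share as a covariate, libraries of up to 55% not unique only, the compared groups alone, and each library left out in turn.

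The members and the nuclear lists were chosen with earlier results of these data known. Values per library are given for the members of highest mean level, for the largest changes past the threshold and for those RefSeq names, of which 1 is not reported here, while ATCG00150, ATCG00540, ATCG00800, ATCG01180 and the slope on the not-unique share were added after values were seen. RefSeq lists plastid genes under other tags than the table's codes, so the planned grouping of members by gene symbol could not be made. Sequences and coordinates are RefSeq's, assembly TAIR10.1. Over the 36 pairs of replicates the chi-square per degree of freedom was 3.78 to 29.2, so none was taken for a repeat of another. Same-numbered libraries of WT DMBQ and WT mock deviated together (correlations 0.18 to 0.23 in the 4 pairs), and the block left their count of calls at 0.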

Additional observations from a re-analysis of the deposited data

Results flagged for a closer look

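In 120 groups of 4 libraries, covering the organelle and not-unique shares and the levels of the members given per library, 15 held a library whose gap to the nearest of the others was above Dixon's critical value for 4 values. For independent and normally distributed values, chance flags about 1 in 20 groups. The groups here share libraries, and some members were picked for large changes, so that rate is no measure of what chance would flag among them.

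Single libraries stood apart for members that followed the not-unique share. ATCG00020 had 3427 CPM in card1-2 DMBQ library 3, where the others had 198 to 686, and 499.9 CPM in card1-1 mock library 3, where the others had 34.6 to 68.2. ATCG00280 had 1492 CPM in card1-2 DMBQ library 3, against 179 to 385 in the others of that group. ATCG00490 had 294.9 CPM in WT DMBQ library 2, where the others had 77.0 to 109, and 145.5 CPM in WT mock library 2, where the others had 58.5 to 73.3. WT DMBQ library 2 also stood apart in its not-unique share, 41.8%, and in its mitochondrial share of gene counts, 0.210%.

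Other members stood apart in other libraries. ATCG00480 had 2107 CPM in WT DMBQ library 4 and 1316 CPM in card1-2 DMBQ library 2. In card1-1 mock library 2, ATCG00810 had 238.3 CPM, rpl20 (ATCG00660) had 32.9 CPM and ATCG00380 had 28.0 CPM, each above the rest of its group. In card1-2 mock library 2, clpP (ATCG00670) had 378.1 CPM and ATCG00160 had 21.5 CPM, also above the rest. ATCG00160 had 5.81 CPM in card1-1 mock library 1, below the others of that group.

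ATCG00150 was flagged because its response to DMBQ differed between genotypes in a test of the difference, by 2.51 on the log2 scale between card1-1 and WT (edgeR, adjusted p = 0.00652).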

How the results depend on the processing

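Counts of members called are given here where they moved by over 1.5 times. With the not-unique share as a covariate they were 4 for DMBQ in card1-1 (all but ATCG00140 lower), 4 in card1-2 (all higher) and 4 in WT (all lower). In that fit they were 2 for card1-1 and 6 for card1-2 against WT with DMBQ, and 0 for card1-1 and 1 for card1-2 in the difference of the response. DESeq2 called 32 for DMBQ in card1-1 (26 higher, 6 lower), 23 for card1-1 and 20 for card1-2 against WT with DMBQ, and 5 for card1-1 and 2 for card1-2 in the difference of the response. limma voom called 25 for DMBQ in card1-1 and 2 in its difference from WT. Without the 3 libraries above 55% not unique, 9 were called for DMBQ in card1-1 and 6 for card1-1 against WT with DMBQ. With only the compared groups, 2 were called for DMBQ in WT, 7 for card1-2 mock against WT mock and 1 for the difference of the response of card1-2. With the replicate number as a block, 1 was called for card1-2 mock against WT mock and 3 for the difference of the response of card1-1. These counts, and those from leaving out each library, stand here without the share of all genes called in the same fit. They therefore do not show how the members compared with other genes. The cause of these moves was not tested.

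Leaving out each library in turn gave 8 to 21 for DMBQ in card1-1, 4 to 8 in card1-2 and 0 to 1 in WT. It gave 7 to 12 for card1-1 and 4 to 13 for card1-2 against WT with DMBQ, 0 to 0 for card1-1 and 0 to 1 for card1-2 against WT in mock libraries, and 1 to 2 and 0 to 2 for the differences of the response of card1-1 and card1-2. Scaling by total counts or by nuclear genes, and no filter, moved none of these counts by over 1.5 times. Over all records the plastid share was 0.409% for card1-1 with DMBQ, 0.454% and 0.411% for card1-2 with DMBQ and mock, and 0.342% for WT mock, each over 1 SD below the share of gene counts. Leaving out each library gave shares of gene counts with DMBQ of 0.865% to 1.17% for card1-1, 0.773% to 1.07% for card1-2 and 0.434% to 0.589% for WT, and in mock libraries of 0.581% to 0.832%, 0.612% to 0.764% and 0.441% to 0.521% for the same genotypes. With the not-unique share as a covariate the median log2 fold change over all members with DMBQ changed sign, to -0.87 in card1-1, -0.0019 in card1-2 and -0.20 in WT.

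Outside DMBQ against mock in WT, no comparison had all its same-numbered correlations over 0.1: over 24 pairs they ran from -0.070 to 0.42, with 12 over 0.1, and a library correlated best with its own number in 12, a hint from the data and not from the labels. Low counts limit members such as ATCG00210, and 6 members could not be tested.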
